A study of Mus musculus with 6 samples.

Results

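The ligands of the epidermal growth factor (EGF) family and the ERBB receptors they bind were followed in normal mouse pancreas and in tumours grown in the pancreas from 2 carcinoma lines. The genes were taken from a list of 10 by symbol: the ligand genes Areg, Ereg, Hbegf, Tgfa, Btc, Egf and Epgn and the receptor genes Egfr, Erbb2 and Erbb3. Of these, 9 had a row in the authors' comparison tables (6 ligands and 3 receptors) among 27179 gene IDs counted, and all 9 passed the filter on low counts. Epgn, which encodes the ligand epigen, had no row there and was followed by its RefSeq gene ID. It had 6 and 2 reads in the H7 tumours, none in the other 4 libraries, and did not pass the filter.

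EGF-family ligands are made as membrane-anchored precursors that proteases of the ADAM family cut free. A bound ligand joins ERBB receptors in pairs, and the receptor kinase then recruits adaptors that start the RAS-ERK and PI3K pathways. ERBB2 has no known ligand of its own and ERBB3 has little kinase activity, so both act mainly in pairs with other ERBB receptors. In the pancreas, EGFR signalling is known for its part in the change of acinar cells to duct-like cells and in pancreatic tumour formation.

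Total RNA was sequenced from 3 groups of n = 2. Normal pancreas was whole pancreas of C57BL/6 mice. H7 tumours grew from PANC02-H7 cells and UNKC tumours from UN-KC-6141 cells, both mouse pancreatic carcinoma lines, after surgical injection of the cells into the pancreas of C57BL/6 mice, and were removed 20 days later; no mouse was treated. Each tumour group is 1 transplanted line and also holds host cells. The labels give no age or sex and do not say that replicates came from separate mice, so p-values measure only the spread between these samples.

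The normal libraries held 8204225 and 12077320 reads counted in genes, of which ribosomal RNA took 85.0% and 86.4%, and the tumour libraries 33332516 to 40507546, of which it took 20.1% to 27.8%. Outside ribosomal RNA and the most abundant genes, 699044 and 780777 reads remained in the normal libraries against 23880939 to 31828387 in the tumours, so low genes are read least well in normal pancreas. Summed acinar markers were at 10175 and 10714 CPM (read counts scaled to the effective library size) in normal pancreas and at 3.70 to 23.6 CPM in the tumours. Replicate 2 of each tumour group stood apart by skeletal muscle markers, which summed to 552 CPM (H7) and 1995 CPM (UNKC) against 0.997 to 7.41 CPM in the other 4 libraries. Across genes, which are not independent replicates, the 2 libraries of a group correlated in log2 CPM at r = 0.802 (normal), 0.967 (H7) and 0.949 (UNKC).

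Promoters are shown for 4 genes: Areg and Btc, which were both lower in H7 than in UNKC tumours, and Egfr and Erbb2, which were both higher in each tumour than in normal pancreas. Of the 10 genes listed, 7 matched the RefSeq promoter table (build GRCm38.p6). Each sequence is the 250 bases before the annotated start, 5′ to 3′ on the gene's strand, with motif matches in capitals. The motifs searched, on both strands and with overlaps allowed, were the AP-1 site (TGANTCA), the cyclic AMP response element or CRE (TGACGTCA), the CRE core (TGACG or CGTCA, which lies within the CRE too), the GC box (GGGCGG or CCGCCC) and the TATA box (TATAAA or TTTATA).
Areg, chr5:91139349-91139598, plus strand: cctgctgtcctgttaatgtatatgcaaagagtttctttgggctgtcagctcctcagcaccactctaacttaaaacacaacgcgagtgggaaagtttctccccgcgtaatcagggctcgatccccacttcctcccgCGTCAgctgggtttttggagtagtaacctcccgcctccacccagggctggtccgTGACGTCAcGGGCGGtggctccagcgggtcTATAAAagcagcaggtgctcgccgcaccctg
Btc, chr5:91402995-91403244, minus strand: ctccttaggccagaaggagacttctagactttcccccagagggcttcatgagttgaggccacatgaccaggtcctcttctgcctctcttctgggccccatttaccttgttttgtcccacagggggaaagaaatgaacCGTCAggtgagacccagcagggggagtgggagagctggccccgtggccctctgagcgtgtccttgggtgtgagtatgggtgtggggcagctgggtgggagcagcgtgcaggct
Egfr, chr11:16751953-16752202, plus strand: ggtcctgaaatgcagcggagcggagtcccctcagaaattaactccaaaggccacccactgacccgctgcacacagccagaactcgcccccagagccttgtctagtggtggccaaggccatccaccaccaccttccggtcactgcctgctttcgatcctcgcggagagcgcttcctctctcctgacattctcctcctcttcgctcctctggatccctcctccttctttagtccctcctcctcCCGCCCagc
Erbb2, chr11:98412234-98412483, plus strand: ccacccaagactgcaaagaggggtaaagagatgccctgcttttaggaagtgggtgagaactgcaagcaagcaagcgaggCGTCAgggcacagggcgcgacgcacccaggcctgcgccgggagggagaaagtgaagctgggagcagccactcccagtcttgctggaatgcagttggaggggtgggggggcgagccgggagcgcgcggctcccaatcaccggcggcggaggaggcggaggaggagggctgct

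The Areg promoter held a CRE whose first base lay 61 bases before the start, a GC box at 52 bases, a TATA box at 31 bases and a separate CRE core at 115 bases. A CRE was found in 1.55% of the 32817 promoter windows of this length, a CRE core in 17.7%, a GC box in 32.7% and a TATA box in 12.4%. The Btc promoter held a CRE core at 113 bases, the Erbb2 promoter a CRE core at 171 bases and the Egfr promoter a GC box at 9 bases. None of these 4 windows held the AP-1 letters, which 6.75% of windows hold. These are matches of letters, not measured binding sites.

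Hbegf, Btc and Areg were the ligand transcripts that set the tumours apart from each other, and Egf was the ligand transcript that was high in normal pancreas. Hbegf rose in both tumours and further in UNKC tumours. Ereg, unread in normal pancreas, was read in all 4 tumour libraries. Areg and Btc were higher than in normal pancreas in UNKC tumours, while neither passed the test in H7 tumours. Egf fell in both tumours.

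**Figure D1:**
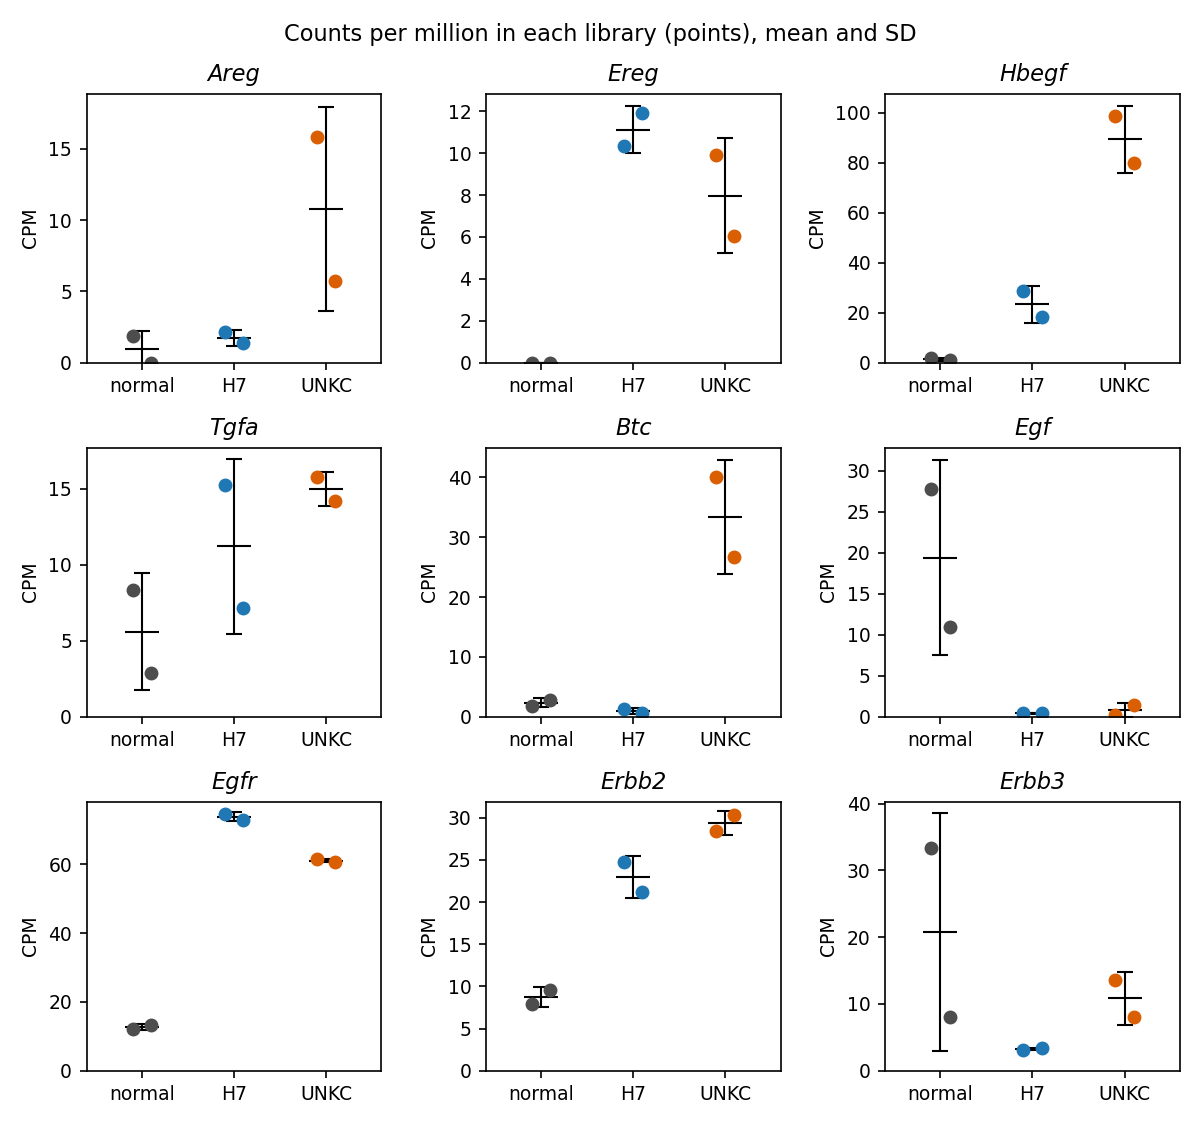
CPM of the 9 genes in each library (points; vertical axes differ and start at 0), with the mean (long line) and SD (whiskers) of n = 2 libraries per group. Hbegf stands at 79.9 and 98.8 CPM in UNKC tumours against 18.1 and 28.5 CPM in H7 tumours, and Egf at 10.97 and 27.8 CPM in normal pancreas against at most 1.37 CPM in a tumour.

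Hbegf (gene ID 15200, chromosome 18) encodes heparin-binding EGF-like growth factor, a ligand of EGFR and ERBB4. Its level was 1.85 and 0.954 CPM in normal pancreas, 28.5 and 18.1 CPM in H7 tumours and 98.8 and 79.9 CPM in UNKC tumours. The 3 groups did not overlap, and the order was normal pancreas, H7, UNKC. Against normal pancreas the log2 fold change was 4.05 ± 0.41 (SE, edgeR adjusted p = 0.00056, or 4.63 without normal replicate 1) in H7 tumours and 5.98 ± 0.40 (edgeR adjusted p = 0.000187) in UNKC tumours. The normal group had 3 read pairs of Hbegf in all, so the fold is wide: on pairs it was 16.3 (95% exact counting interval 5.57 to 79.1) in H7 and 63.5 (21.7 to 308) in UNKC tumours. Between the tumours, where reads were many, Hbegf was 3.83-fold lower in H7 (log2 fold change -1.94 ± 0.27, edgeR adjusted p = 0.00566).

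Btc (gene ID 12223, chr5:91357261-91402994) encodes betacellulin, a ligand of EGFR and ERBB4 first found in beta cell tumours. It stood at 1.85 and 2.86 CPM in normal pancreas, 1.30 and 0.616 CPM in H7 tumours and 40.1 and 26.6 CPM in UNKC tumours. Both UNKC libraries were above all others, and both H7 libraries were below both normal ones. Btc was higher in UNKC tumours than in normal pancreas (log2 fold change 3.83 ± 0.53, edgeR adjusted p = 0.002). The log2 fold change of -1.30 ± 0.63 in H7 tumours did not pass (edgeR adjusted p = 0.138). It passed without H7 replicate 1 (log2 fold change -1.86, edgeR adjusted p = 0.0475) and turned to 1.98 with no scaling factors, where the median of all genes was at 3.61. In H7 it was 34.8-fold lower than in UNKC tumours (log2 fold change -5.12 ± 0.44, edgeR adjusted p = 0.00174), or by -5.73 on the log2 scale without H7 replicate 1.

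Areg (gene ID 11839, chr5:91139599-91148432) encodes amphiregulin, an EGFR ligand made by epithelial cells and by several immune cells. It was read at 1.85 and 0 CPM in normal pancreas, 2.14 and 1.36 CPM in H7 tumours and 15.9 and 5.70 CPM in UNKC tumours. Normal pancreas and H7 tumours overlapped; both UNKC libraries were above them but 2.78-fold apart from each other. The difference of UNKC tumours from normal pancreas had a log2 fold change of 3.52 ± 1.07 (edgeR adjusted p = 0.0328), on 1 read pair in the normal group (fold on pairs 23.2, 95% exact counting interval 4.15 to 916). That call was lost in 8 of 18 alternatives, among them upper-quartile factors (edgeR adjusted p = 0.0533) and leaving out normal replicate 2 (0.115, log2 fold change 2.57), UNKC replicate 1 (0.103, log2 fold change 2.62), H7 replicate 1 (0.0607) or H7 replicate 2 (0.0578). Areg was lower in H7 than in UNKC tumours (log2 fold change -2.62 ± 0.65, edgeR adjusted p = 0.0357), and this call was lost without H7 replicate 1 (0.212), H7 replicate 2 (0.228) or UNKC replicate 1 (0.189, log2 fold change -1.70). H7 tumours against normal pancreas gave 0.90 ± 1.26 on the log2 scale (edgeR adjusted p = 0.579).

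Ereg (gene ID 13874, chr5:91074617-91093649) encodes epiregulin, a ligand of EGFR and ERBB4. No read fell on Ereg in either normal library, and the tumours had 10.3 and 11.9 CPM (H7) and 9.90 and 6.04 CPM (UNKC). Against a floor of 3 read pairs over the normal group, or 1.41 CPM, the level of Ereg was at least 7.93-fold higher in H7 (edgeR adjusted p = 0.00192) and at least 5.69-fold higher in UNKC tumours (edgeR adjusted p = 0.00288). The tumours did not overlap, with H7 above UNKC, but their difference did not pass (log2 fold change 0.48 ± 0.30, edgeR adjusted p = 0.357). Ereg counted 1.71 to 1.79 reads per read pair in the tumours, where Hbegf and Egfr counted between 2.00 and 2.01.

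Tgfa (gene ID 21802, chr6:86195038-86275744) encodes transforming growth factor alpha, an EGFR ligand. Its values of 8.33 and 2.86 CPM in normal pancreas, 15.3 and 7.14 CPM in H7 tumours and 15.8 and 14.2 CPM in UNKC tumours overlapped between H7 tumours and each of the other groups. The log2 fold change from normal pancreas was 0.99 ± 0.56 in H7 (edgeR adjusted p = 0.188) and 1.41 ± 0.56 in UNKC tumours (edgeR adjusted p = 0.0831), and neither passed. In the authors' deposited table Tgfa passed in UNKC tumours (log2 fold change 1.05, adjusted p = 0.0372), and for the other 8 genes that table and the edgeR test gave the same calls in both tumours. That table calls 24.5% of its genes higher and 24.7% lower in H7 tumours; for UNKC tumours the shares are 23.9% and 23.5%. Without normal replicate 1 Tgfa passed in UNKC tumours by edgeR too (log2 fold change 2.41, adjusted p = 0.0423), and its H7 value was 1.99.

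Egf (gene ID 13645, chr3:129677574-129755322) encodes the founding member of the family, made as a long membrane precursor. It stood at 27.8 and 10.97 CPM in normal pancreas, 0.391 and 0.436 CPM in H7 tumours and 0.199 and 1.37 CPM in UNKC tumours. Every tumour library was below both normal libraries. The log2 fold change was -5.54 ± 1.00 in H7 (edgeR adjusted p = 0.00511) and -4.63 ± 0.95 in UNKC tumours (edgeR adjusted p = 0.00881). The H7 call was lost without H7 replicate 1 (edgeR adjusted p = 0.0516) and the UNKC call without normal replicate 1 (0.0583, log2 fold change -3.79). The H7 value was -4.69 without normal replicate 1, and the UNKC value was -3.80 without UNKC replicate 1 and -6.56 without UNKC replicate 2. In bulk tissue, fewer cells that make a transcript and less of it per cell cannot be told apart; the acinar markers given above fell with Egf in both tumours, and their part in the result was not tested.

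Egfr and Erbb2 rose in both tumours, and Erbb3 fell in H7 tumours. No receptor difference between the tumours passed the main edgeR test over all 6 libraries. At an unadjusted p under 0.05 that of Erbb3 did, and by DESeq2 those of Egfr and Erbb3. With the replicate number as a block edgeR also called Erbb3.

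Egfr (gene ID 13649, chr11:16752203-16913907) encodes the receptor shared by all ligands listed here. It stood at 12.0 and 13.4 CPM in normal pancreas, 74.8 and 73.0 CPM in H7 tumours and 61.5 and 60.7 CPM in UNKC tumours. The groups did not overlap, and replicates of each tumour differed by at most 1.02-fold. Egfr was 5.82-fold higher in H7 (log2 fold change 2.54 ± 0.14, edgeR adjusted p = 0.000147) and 4.81-fold higher in UNKC tumours (2.27 ± 0.14, edgeR adjusted p = 0.000171) than in normal pancreas. The log2 difference of 0.27 ± 0.12 between the tumours did not pass over all 6 libraries (edgeR adjusted p = 0.179). It passed when only the 4 tumour libraries were fitted (0.0401) and without normal replicate 1 (0.0455) or normal replicate 2 (0.0457).

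Erbb2 (gene ID 13866, chr11:98412484-98437716) stood at 7.87 and 9.54 CPM in normal pancreas, 24.7 and 21.2 CPM in H7 tumours and 28.4 and 30.4 CPM in UNKC tumours. Here too the groups did not overlap. The rise was 2.64-fold in H7 (log2 fold change 1.40 ± 0.19, edgeR adjusted p = 0.00172) and 3.38-fold in UNKC tumours (1.76 ± 0.19, edgeR adjusted p = 0.000833), while the log2 difference between the tumours was -0.35 ± 0.16 (edgeR adjusted p = 0.19).

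Erbb3 (gene ID 13867, chr10:128567523-128589635) was the receptor with the widest spread in normal pancreas, at 33.3 and 8.11 CPM, replicates that were 4.11-fold apart. H7 tumours had 3.08 and 3.36 CPM and UNKC tumours 13.6 and 8.06 CPM. Both H7 libraries were below all others, while UNKC tumours overlapped with normal pancreas. The log2 fold change was -2.69 ± 0.62 in H7 (edgeR adjusted p = 0.0129) and -0.94 ± 0.59 in UNKC tumours (edgeR adjusted p = 0.238). With no scaling factors the H7 value turned to 0.73, yet against the median of all genes it was -3.02 with TMM factors and -2.88 without. The H7 call was also lost without normal replicate 1 (0.0596, log2 fold change -1.30), H7 replicate 1 (0.0955) or H7 replicate 2 (0.0778), and without normal replicate 2 the value was -3.33. Without normal replicate 1 the UNKC value turned to 0.44, and without normal replicate 2 it passed at -1.59 (edgeR adjusted p = 0.0183). The log2 difference of H7 from UNKC tumours, -1.75 ± 0.56, did not pass in the main fit over all 6 libraries (edgeR adjusted p = 0.0869). It did with the replicate number as a block, without either normal library, and when only the tumour libraries were fitted (edgeR adjusted p = 0.0175).

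Of the 9 genes tested, H7 tumours had 4 above and 2 below normal pancreas, beside 29.6% and 21.9% of all 16306 genes tested. UNKC tumours had 6 above and 1 below, beside 29.1% and 19.3% of all genes. Between the tumours none was higher and 3 were lower in H7 by edgeR, beside 7.14% and 11.1% of all genes; at an unadjusted p under 0.05, 4 of the 9 genes differed, and DESeq2 called 1 higher and 4 lower. The median log2 fold change of the 9 genes was 0.99 in H7 and 2.27 in UNKC tumours against normal pancreas, and that of all genes tested was 0.34 and 0.42. With every gene unread in normal pancreas at its bound the members' medians were the same, and those of all genes -0.05 and 0.07. The comparisons with normal pancreas share the normal libraries.

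**Figure D2:**
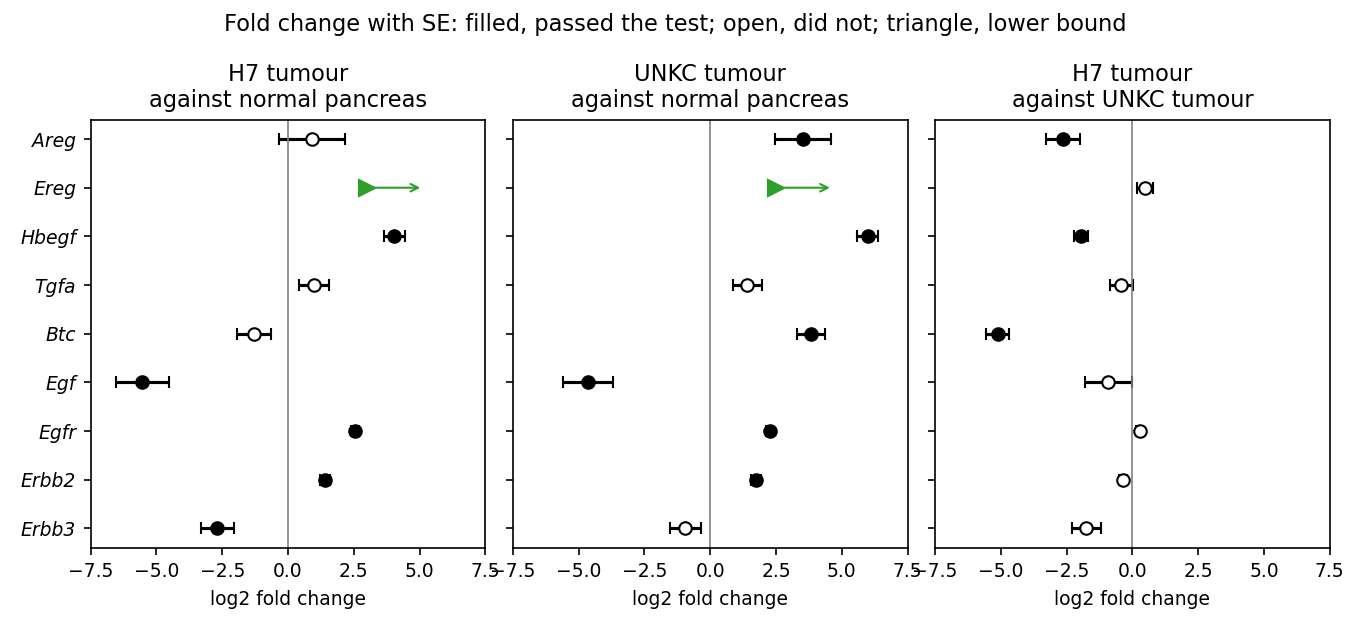
Log2 fold change with SE of the 9 genes in 3 comparisons (edgeR, all 6 libraries; filled points passed at an adjusted p of 0.05). Triangles with arrows mark Ereg, a lower bound because normal pancreas had no read; Btc and Erbb3 in H7 tumours and Erbb3 in UNKC tumours change sign against normal pancreas with no scaling factors.

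Egf held the largest share of the ligand pool in normal pancreas, and Hbegf in both tumours, with either gene length used. CPM per kilobase, with the gene lengths of the authors' tables, allows levels of different genes to be set side by side. Summed over the 6 ligands, normal pancreas had 7.58 ± 4.52 CPM per kilobase (SD, n = 2), H7 tumours had 17.0 ± 4.82 and UNKC tumours 63.8 ± 15.6. Egf made up 53.4% ± 1.08 of the sum in normal pancreas but 0.538% ± 0.192 of it in H7 and 0.301% ± 0.346 in UNKC tumours. Over both normal libraries the shares rest on 43 read pairs of Egf, 12 of Tgfa, 5 of Btc, 3 of Hbegf and 1 of Areg. An SD from 2 libraries may be smaller than that counting error. Hbegf made up 57.3% ± 2.02 in H7 and 59.7% ± 5.85 in UNKC tumours, against 8.20% ± 1.37 in normal pancreas. The tumours differed in what came after Hbegf: Ereg at 16.7% ± 6.30 and Tgfa at 15.0% ± 3.72 in H7, and Btc at 18.1% ± 0.752 and Areg at 13.3% ± 6.11 in UNKC tumours. With whole annotated exon lengths in place of the table lengths, the share of Hbegf was 43.7% in H7 and 48.4% in UNKC tumours, and that of Egf in normal pancreas 42.0%. Those lengths put Areg (21.4% ± 8.80) ahead of Btc (18.9% ± 0.196) in UNKC tumours and Ereg at 25.7% ± 8.83 in H7 tumours, so the order after Hbegf in UNKC tumours rests on the length used. These shares carry no test.

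Summed over the 3 receptors, normal pancreas had 8.87 ± 4.05 CPM per kilobase (SD, n = 2), H7 tumours had 16.9 ± 0.645 and UNKC tumours 18.1 ± 0.783. Egfr held 68.0% ± 1.45 of that sum in H7 and 52.6% ± 1.79 in UNKC tumours. In normal pancreas Erbb3 held 70.7% in replicate 1 and 33.6% in replicate 2, and the order of the receptors differed between these replicates. Erbb3 held 4.76% ± 0.472 in H7 and 14.8% ± 4.74 in UNKC tumours. With whole exon lengths Egfr held 56.9% in H7 and 42.1% in UNKC tumours, where Erbb2 then held 44.0% ± 3.56 and overlapped with Egfr.

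**Figure D3:**
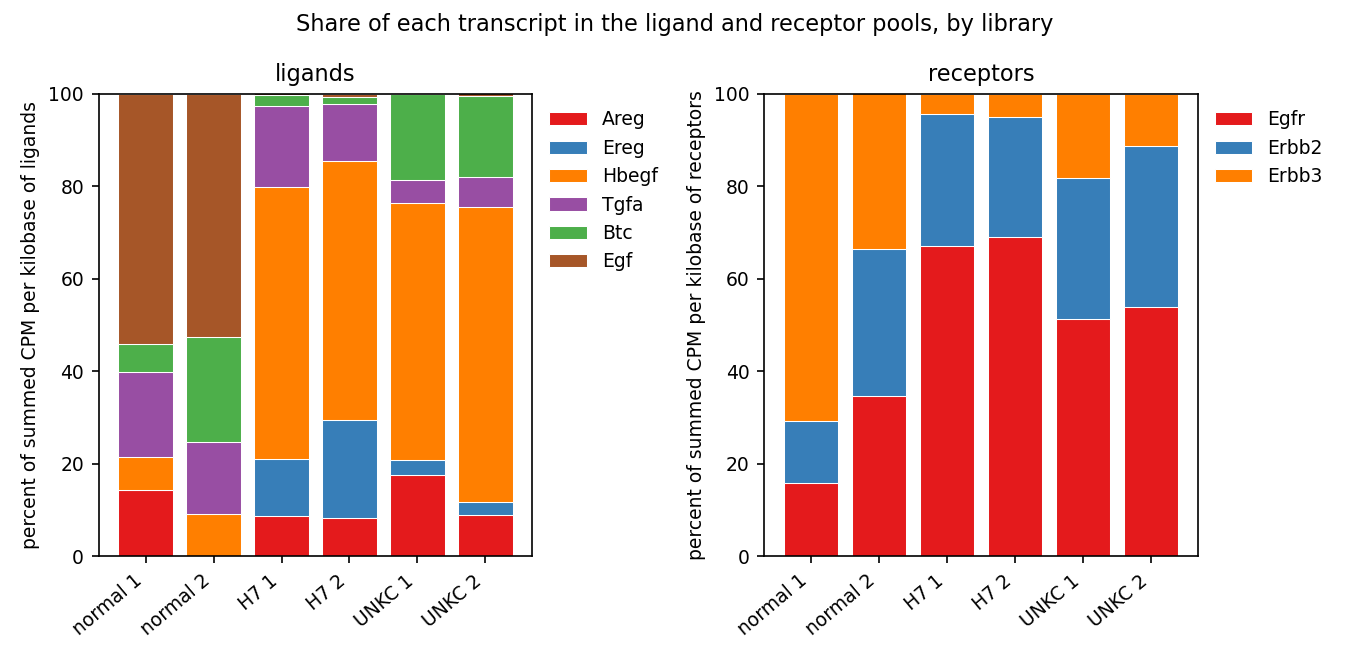
Percent of summed CPM per kilobase held by each of the 6 ligands (left) and 3 receptors (right) in each library, stacked from 0. Egf fills 52.7% and 54.2% of the ligand bar in normal pancreas and Hbegf 55.5% to 63.8% in the 4 tumours. The ligand bars of normal pancreas rest on few read pairs, 43 of them of Egf over both libraries.

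In the order of CPM per kilobase, Erbb3 (5.15 ± 4.44, SD, n = 2) and Egf (4.07 ± 2.50) led normal pancreas with overlapping ranges, and Egfr (1.97 ± 0.145), Erbb2 (1.74 ± 0.237), Tgfa, Btc, Areg and Hbegf followed, each overlapping with the next. H7 tumours were led by Egfr (11.5 ± 0.194) and Hbegf (9.81 ± 3.11), which overlapped, followed by Erbb2 (4.60 ± 0.499). Ereg, Tgfa and Areg came next with overlapping neighbours, then Erbb3, Btc and Egf without overlap. UNKC tumours were led by Hbegf (37.6 ± 5.60) alone. Btc (11.6 ± 3.31), Egfr (9.49 ± 0.0893), Areg (8.99 ± 5.98) and Erbb2 (5.88 ± 0.278) followed, each overlapping with the next, and then Tgfa, Erbb3 and Ereg, of which neighbours also overlapped, and Egf. With whole exon lengths the order in UNKC tumours after Hbegf was Areg, Btc, Erbb2, Egfr and Tgfa, so the places of Btc, Egfr, Areg and Erbb2 there depend on the length used. Normal pancreas then had Erbb2 before Egfr and Areg before Btc; the first 3 places in H7 tumours stayed Egfr, Hbegf and Erbb2.

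Epgn, Ereg, Areg and Btc lie in a row on chromosome 5. From the start of Epgn to the end of Btc the stretch spans 375.478 kilobases (chr5:91027517-91402994, GRCm38) and holds 5 genes counted, of which Ereg, Areg and Btc were tested. The neighbours differed in their values: Btc and Areg were higher in UNKC than in H7 tumours, Ereg had its highest values in H7 tumours, and Epgn was nearly unread. The fifth gene, the long non-coding RNA gene Gm19619 between Areg and Btc, had at most 2 reads in a library.

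Markers of several cell types also differed between the tumours, some lower and some higher in H7. Of 7 acinar markers 3 were higher in H7 than in UNKC tumours. So were 1 of 4 Schwann cell markers and 1 of 5 T cell and type 2 lymphoid markers, while 1 of 4 endothelial markers was lower. Of 3 B cell markers 2 were lower in H7 than in UNKC tumours, as were 2 of 3 mesothelial ones, and none was higher. Among all genes 11.1% were lower and 7.14% higher. The B cell markers summed to at most 2.55 CPM in a tumour and to at most 0.218 CPM in H7. The ductal and epithelial markers (10 genes) summed to 441 and 414 CPM in H7, 1198 and 987 CPM in UNKC and 299 and 203 CPM in normal pancreas, and 4 of the 10 were lower in H7 than in UNKC tumours by edgeR, beside 11.1% of all genes; each of the 10 was read in every library. The mast cell and basophil markers (6 genes, 5 tested) summed to 2.53 and 3.68 CPM in H7, 18.7 and 11.2 CPM in UNKC and 9.26 and 23.9 CPM in normal pancreas. Of the 5 tested, 4 were lower in H7 than in UNKC tumours, beside 11.1% of all genes. Tpsb2, Mcpt8 and Fcer1a had at most 0.0579 CPM in an H7 library. They passed the filter on low counts by their UNKC reads, so a call could hardly go the other way. Kit alone held 9.26 and 19.6 CPM of the sum in normal pancreas and 2.32 and 3.26 CPM in H7, against 4.59 and 3.51 CPM in UNKC tumours, and was the 1 not called between the tumours (log2 fold change -0.54 ± 0.37, edgeR adjusted p = 0.39). Of the 6, 5 and 2 were at 0 in the normal libraries, 2 and 0 in the H7 libraries and none in UNKC tumours. Macrophage markers (6 genes) summed to 459 and 418 CPM in H7 against 241 and 238 CPM in UNKC tumours. By edgeR 2 of the 6 were higher in H7 than in UNKC tumours, beside 7.14% of all genes. Mrc1 had a negative value there that was not called (log2 fold change -0.67 ± 0.21). Fibroblast markers (6 genes) summed to 215 to 319 CPM in normal pancreas and 822 to 1234 CPM in H7. In UNKC tumours they summed to 1225 to 2364 CPM. Of the 6, 5 were higher in H7 and 3 in UNKC than in normal pancreas (29.6% and 29.1% of all genes were). Dcn, Pdgfra and Pdgfrb were the 3 higher in H7 than in UNKC tumours (log2 fold change 1.82, 2.06 and 2.41). Col1a1, Col1a2 and Lum had negative values there, none called (-1.65, -2.33 and -0.46). Neutrophil markers (5 genes) ranged from 7.87 to 25.3 CPM in normal pancreas, 30.7 to 43.5 CPM in H7 and 6.60 to 7.73 CPM in UNKC tumours, and 3 of the 5 were higher in H7 than in UNKC tumours (7.14% of all genes were). The parts these cells have in the differences of Hbegf, Btc and Areg between the tumours were not tested. Without both muscle-rich libraries the log2 fold change of H7 from UNKC tumours was -1.79 for Hbegf, -4.94 for Btc and -2.88 for Areg; that fit has 1 residual degree of freedom and calls no gene.

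Other genes of the pathway were read from 5 lists, whose counts stand beside the shares of all genes tested: 29.6% were higher and 21.9% lower in H7, 29.1% and 19.3% in UNKC tumours against normal pancreas, and 7.14% were higher and 11.1% lower in H7 against UNKC tumours. Of the neuregulins, which are ligands of ERBB4 and some of them also of ERBB3, and Erbb4 itself, 4 of 5 were tested and Nrg3 had no read. Against normal pancreas 1 was higher and 2 were lower in H7, 1 higher and 1 lower in UNKC tumours. Between the tumours 1 was higher and 1 lower in H7. Nrg2 was higher, at 1.94 and 1.55 CPM in H7 and 0.233 and 0.211 CPM in UNKC tumours (log2 fold change 2.96 ± 0.52, edgeR adjusted p = 0.00801). Nrg4 was lower (-1.89 ± 0.39, edgeR adjusted p = 0.0246). The genes of this list are named after their values were seen. A count of 1 in 4 is near the shares of all genes against normal pancreas. Nrg1 had no read in normal pancreas; its level was at least 2.86-fold higher in H7 (edgeR adjusted p = 0.00434) and at least 2.73-fold higher in UNKC tumours (edgeR adjusted p = 0.00483). Erbb4 fell from 2.78 and 5.73 CPM in normal pancreas to 0.029 and 0.0513 CPM in H7 (edgeR adjusted p = 0.000937) and 0.122 and 0.0703 CPM in UNKC tumours (edgeR adjusted p = 0.00142, log2 fold change -5.42 ± 0.70, or -4.79 without normal replicate 2). Nrg4 fell in H7 tumours (log2 fold change -3.09 ± 0.59, edgeR adjusted p = 0.00643), a value of 0.20 with no scaling factors but -3.42 and -3.41 against the median of all genes with and without them. The median log2 fold change of the 4 was -0.60 in H7, or -0.79 with Nrg1 at its bound, and -1.14 in UNKC tumours.

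The proteases that shed the ligands, with their regulators (10 genes), had 3 higher and 1 lower in H7 and 7 higher and 1 lower in UNKC tumours than in normal pancreas, with median log2 fold changes of 0.39 and 1.11. The 3 of 10 higher in H7 tumours are near the 29.6% of all genes. The 7 of 10 in UNKC tumours stand beside 29.1%. That UNKC count was 5 with DESeq2 size factors or by DESeq2, 4 with upper-quartile factors and 10 with no scaling factors. Adam17, the main sheddase of Areg, Ereg, Hbegf and Tgfa precursors, stood at 15.7 and 6.20 CPM in normal pancreas, 80.8 and 80.6 CPM in H7 and 55.9 and 46.0 CPM in UNKC tumours (log2 fold change in H7 2.87 ± 0.37, edgeR adjusted p = 0.00151, or 3.73 without normal replicate 1; in UNKC 2.21 ± 0.37, edgeR adjusted p = 0.00406, or 3.06 without normal replicate 1). Adam9 rose in H7 (1.53 ± 0.14, edgeR adjusted p = 0.00049) and in UNKC tumours (2.74 ± 0.15, edgeR adjusted p = 0.00015) and was lower in H7 than in UNKC tumours (-1.20 ± 0.13, edgeR adjusted p = 0.00348, and 0.0609 without H7 replicate 1). The largest rises by the naming rule in UNKC tumours were those of Adam12, which also cuts Hbegf (3.54 ± 0.79, edgeR adjusted p = 0.0116), and of Timp3, an inhibitor of ADAM17 (2.80 ± 0.53, edgeR adjusted p = 0.00667, or 3.51 without normal replicate 2). Timp3 and Adam12 were both lower in H7 than in UNKC tumours (-3.01 ± 0.52 and -2.30 ± 0.55, edgeR adjusted p = 0.0134 and 0.0359), as were 4 of the 10 in all, beside 11.1% of all genes. Rhbdf1, an iRhom that escorts ADAM17, fell in both tumours (-1.11 ± 0.14 in H7 and -1.33 ± 0.15 in UNKC). Leaving out normal replicate 1 gave 5 higher in H7, leaving out UNKC replicate 2 gave 4 higher in UNKC tumours, and of the 4 falls from UNKC to H7 tumours 0 were left without H7 replicate 1 and 2 without UNKC replicate 1 or UNKC replicate 2. The call of Adam12 in UNKC tumours was lost without either normal library (edgeR adjusted p = 0.062 and 0.059), and between the tumours without any library other than H7 replicate 2 (from 0.0584 to 0.12); its log2 value there was -3.32 without H7 replicate 2 and -1.68 without H7 replicate 1. That of Timp3 between the tumours was lost without H7 replicate 1 (0.0889), and its log2 value there was -3.80 without H7 replicate 2.

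Among the adaptors and relays (10 genes), 5 were higher and 2 lower in H7, 5 higher and 3 lower in UNKC tumours than in normal pancreas (median log2 fold changes 0.58 and 0.38; 29.6% and 29.1% of all genes were higher), and none passed between the tumours by edgeR (at an unadjusted p under 0.05, 3 were higher and 1 lower in H7, and by DESeq2 4 and 2). Grb2, which links receptors to the RAS exchange factor SOS, rose from 4.17 and 3.82 CPM to 22.4 and 21.9 CPM in H7 and 20.8 and 21.6 CPM in UNKC tumours (log2 fold change 2.47 ± 0.19 and 2.41 ± 0.19, edgeR adjusted p = 0.000276 and 0.000306). Shc1, another adaptor, rose in both (1.87 ± 0.14 in H7 and 1.49 ± 0.14 in UNKC, edgeR adjusted p = 0.000562 in UNKC), as did Crk (1.65 ± 0.13 in H7, edgeR adjusted p = 0.000332, and 2.09 ± 0.14 in UNKC). The falls named by the rule were Plcg1, a phospholipase recruited by EGFR, in both tumours (-0.99 ± 0.17 and -0.76 ± 0.17), Sos2 in H7 (-0.70 ± 0.18; -0.60 ± 0.18 in UNKC, edgeR adjusted p = 0.0378) and Gab1, a docking protein, in UNKC tumours (-2.07 ± 0.40). Crk, the gene of this list with the highest CPM in H7 and UNKC tumours together, differed between them by -0.44 ± 0.12 on the log2 scale (edgeR adjusted p = 0.0594, and 0.0296 without either normal library). Without H7 replicate 1, H7 replicate 2 or UNKC replicate 1 the fall of Sos2 in H7 was lost (edgeR adjusted p = 0.121, 0.129 and 0.0577) and 1 of the list was lower there; in UNKC tumours the fall of Sos2 was lost without any library other than normal replicate 1 (from 0.0733 to 0.178). Without UNKC replicate 1 that of Plcg1 in UNKC tumours was lost (0.1) and 1 of the list was lower, and without normal replicate 1 the value of Gab1 was -1.26. Without either normal library 4 were higher and 1 lower in H7 than in UNKC tumours.

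The genes that restrain the receptors (10 genes) had 5 higher and 2 lower in H7 and 3 higher and 1 lower in UNKC tumours than in normal pancreas (median log2 fold changes 0.52 and 0.05), the 3 of 10 in UNKC tumours near the 29.1% of all genes. Between the tumours 1 was higher and 2 were lower in H7. Socs5, a suppressor that acts on EGFR, stood at 10.2 and 8.59 CPM in normal pancreas, 100.2 and 78.3 CPM in H7 and 45.9 and 41.1 CPM in UNKC tumours. It rose by 3.25 ± 0.20 in H7 and 2.21 ± 0.20 in UNKC tumours on the log2 scale (edgeR adjusted p = 0.000177 and 0.000465) and was higher in H7 than in UNKC tumours (1.04 ± 0.17, edgeR adjusted p = 0.0112). Errfi1, which encodes the EGFR inhibitor MIG6, rose in both (2.61 ± 0.14 and 2.19 ± 0.14, edgeR adjusted p = 0.000139 and 0.000179). Lrig3 fell in both (-3.65 ± 0.48 and -1.89 ± 0.44), and with Cblc was lower in H7 than in UNKC tumours (-1.76 ± 0.39 and -1.87 ± 0.44, edgeR adjusted p = 0.0296 and 0.0359; both calls were lost when any 1 of the 4 tumour libraries was left out, and Cblc was at -2.52 without H7 replicate 1). Cblb, a ubiquitin ligase, fell in H7 tumours (-0.65 ± 0.22, edgeR adjusted p = 0.0464). With upper-quartile factors this list had 2 higher and 4 lower in H7 tumours, and with a library left out 2 to 6 higher (2 without H7 replicate 1, 3 without H7 replicate 2, UNKC replicate 1 or UNKC replicate 2) and 1 to 2 lower. Without UNKC replicate 1 none was lower in UNKC tumours than in normal pancreas, and without either normal library 5 were higher in H7 than in UNKC tumours. The call of Cblb was lost without any library other than normal replicate 2 (edgeR adjusted p from 0.0857 to 0.195), that of Lrig3 in UNKC tumours without UNKC replicate 1 (0.0738), and that of Socs5 between the tumours without H7 replicate 1, UNKC replicate 1 or UNKC replicate 2 (0.111, 0.0625 and 0.0683).

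Genes that ERK signalling switches on, among them its feedback inhibitors (14 genes), had 12 higher and none lower in each tumour by edgeR (none lower at an unadjusted p under 0.05 or by DESeq2 either), with median log2 fold changes of 2.08 and 3.08 (2.03 and 2.57 with Fosl1 at its bound). Dusp6, an ERK phosphatase, stood at 8.33 and 11.9 CPM in normal pancreas, 135.8 and 138.2 CPM in H7 and 143.5 and 137.9 CPM in UNKC tumours. Dusp5 and Etv4 were also among the largest rises but rest on 1 read pair each in normal pancreas. Among all genes 29.6% and 29.1% were higher. Between the tumours 1 was higher and 6 were lower in H7, beside 7.14% and 11.1% of all genes: Spry1 was higher (1.63 ± 0.16, edgeR adjusted p = 0.00219), and Dusp4 (-2.66 ± 0.29, edgeR adjusted p = 0.00312) and Ier3 (-2.17 ± 0.26, edgeR adjusted p = 0.00364) were the largest falls. Without H7 replicate 1 there were 7 higher in H7 tumours than in normal pancreas, and 1 lower than in UNKC tumours, where the call of Dusp4 was lost (edgeR adjusted p = 0.06); without H7 replicate 2 or UNKC replicate 1, 2 were lower than in UNKC tumours.

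With no scaling factors the median of all genes moved to 3.61 in H7 and 3.77 in UNKC tumours, and the falls of Rhbdf1, Plcg1, Sos2 and Cblb in H7 and of Rhbdf1, Plcg1, Sos2, Gab1 and Lrig3 in UNKC tumours turned to rises. Against that median all of them stayed negative, from -0.93 for Cblb to -1.43 for Rhbdf1 in H7 and from -1.05 for Sos2 to -2.39 for Gab1 in UNKC tumours.

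**Figure D4:**
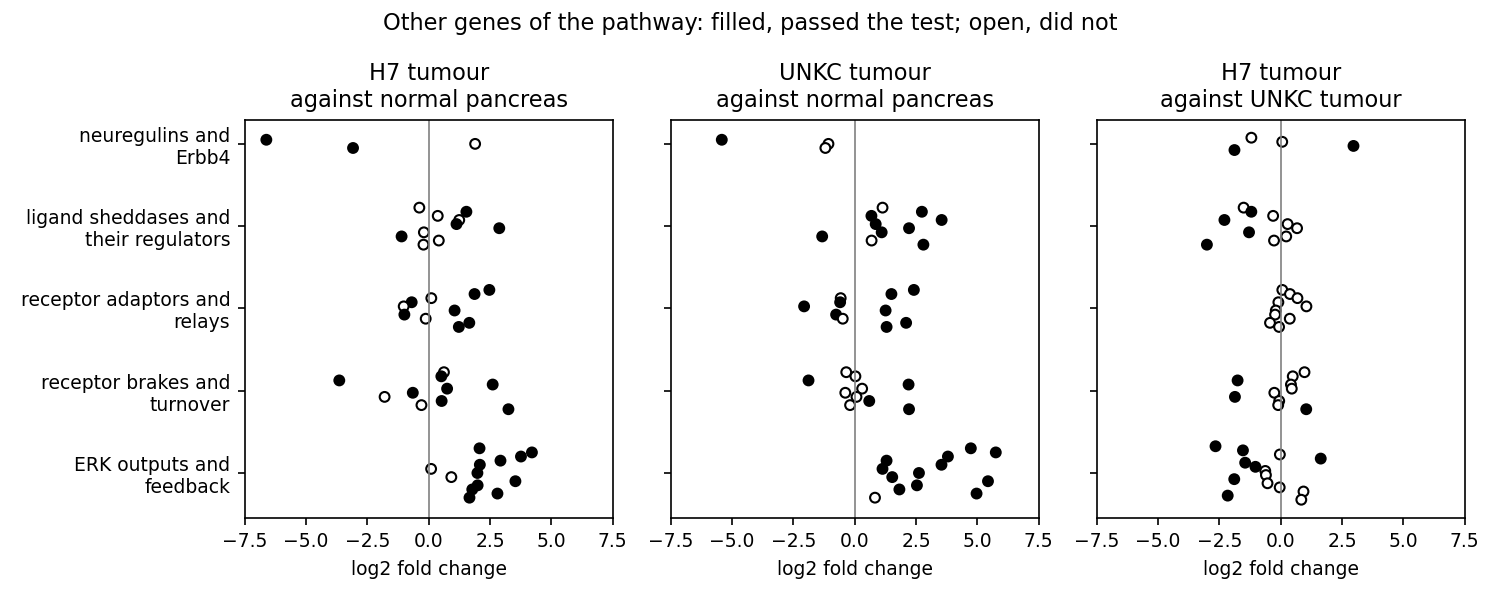
Log2 fold change (horizontal axis) of each tested gene of the 5 pathway lists in 3 comparisons, filled where the edgeR adjusted p was under 0.05; Nrg1 and Fosl1, with no read in the per-sample counts of normal pancreas, are left out there. In both tumours 12 of 14 ERK output genes were higher than in normal pancreas, while falls against it turn with no scaling factors for the genes named above.

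The tested genes whose log2 CPM profile over the 6 libraries was nearest to each member, each profile centred on its own mean, were named by the root mean square distance (log2 units). For Hbegf these were Sult2b1 (0.409) and Fabp5 (0.41), for Areg Azin2 (0.433) and Pdlim4 (0.552), and for Ereg Haus8 (0.114) and Prss35 (0.126). Sult2b1, Fabp5, Haus8 and Prss35 had no read in normal pancreas, so their values there are set by the prior count. Ereg had none either, which makes its distances small in part. Sult2b1 and Fabp5 reached at most 1.79 and 2.13 CPM in a tumour. Btc was nearest to Cdh6 (0.227) and Bmp2 (0.341), Tgfa to Chst14 (0.229) and Cfap69 (0.231), and Pde9a (0.367) was among the 2 nearest to Egf. Egfr was nearest to Tmem208 (0.0611) and Nubp2 (0.0618), Erbb2 to Xiap (0.059) and Tmem186 (0.0648), and Erbb3 to Tjp3 (0.33) and Sox7 (0.331). Azin2, Pdlim4, Bmp2, Chst14, Cfap69, Tmem208, Nubp2 and Tmem186 had at most 2.78 CPM in a normal library. The floor there was 1.41 CPM, so their distances rest on few normal reads too. No member was among the 2 genes nearest to another member, which says little with 9 members among 16306 genes. The number of genes nearer than the nearest other member ran from 406 (Hbegf for Ereg) to 7303 (Tgfa for Erbb3).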

How the data were processed

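RNA-seq of 6 mouse samples in 3 groups of n = 2 was used. The authors deposited a raw count of reads for every gene ID of each sample, and STAR, featureCounts, DESeq2 1.18.1 and build mm10 are named in the submitters' processing notes. The authors' comparison tables hold counts of read pairs, TPM, gene length, log2 fold changes and p-values with adjusted p-values, per the file headers. Both mates of a pair are counted in these files (median 2.00 reads per pair), and the strand setting is not given in the sources used here. Gene names came from the tables for 16286 gene IDs and from RefSeq for 9355; 1538 stayed without a name. Coordinates are GRCm38 (mm10).

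After filterByExpr, 16306 genes were left, and libraries were scaled by TMM factors (0.179 and 0.256 in normal pancreas, 2.07 to 2.23 in tumours). Genes were tested with the quasi-likelihood model of edgeR 4.0.16 (limma 3.58.1, R 4.3.3) on all 6 libraries, with 3 residual degrees of freedom and Benjamini-Hochberg adjustment over all genes at a threshold of 0.05. CPM use effective library sizes, and CPM per kilobase uses the table lengths. Profiles for the nearest genes are log2 CPM with a prior count of 2. Folds against a group with no read are bounds against 3 read pairs (6 read counts) over the group; with 1 to 3 pairs, 95% exact binomial intervals on pairs are given, which cover counting error only. DESeq2 1.42.0 was an alternative; Python 3.11.15, pandas 2.3.3, SciPy 1.17.1 and matplotlib 3.10.9 did the rest, and the pipeline was tested on simulated data. Other scalings, filters, tests, library omissions, a replicate block and thinning were tried.

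The members and lists were chosen with earlier results of these data known. Of each pathway list and comparison, up to 2 called rises and 2 called falls with the largest change and at least 5 CPM in the higher group were named (in a list with no call, the gene with the highest CPM), and for each member the 2 nearest genes, of which 1 is not reported here. Values of Nrg1, Nrg2, Nrg3, Nrg4, Erbb4, Fosl1, Cblc, Kit, Tpsb2, Mcpt8, Fcer1a, Gm19619, Mrc1 and the fibroblast markers fall outside that rule. So do those of Adam9, Adam17, Shc1, Crk, Sos2 and Lrig3 in comparisons where the rule did not name them.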

Additional observations from a re-analysis of the deposited data

Results flagged for a closer look

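The differences of Areg, Hbegf and Btc from normal pancreas were not the same in the tumours of the 2 lines by the test of the difference itself, which is the direct comparison of H7 with UNKC tumours because both use the same normal libraries. H7 minus UNKC was -2.62 for Areg, -1.94 for Hbegf and -5.12 for Btc on the log2 scale (edgeR adjusted p = 0.0357, 0.00566 and 0.00174). Leaving out a single library never ended the call for Hbegf or Btc, and leaving out H7 replicate 1, H7 replicate 2 or UNKC replicate 1 ended it for Areg (0.212, 0.228 and 0.189).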

How the results depend on the processing

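Over 474 alternatives of 27 gene results, 414 kept direction and side of the threshold, 35 lost the call, 17 gained it and 8 reversed. With no scaling factors H7 tumours had 7 members above and 0 below normal pancreas and UNKC tumours 0 below; Btc in H7 turned to 1.98, Erbb3 in H7 to 0.73 and Erbb3 in UNKC to 2.55, while the median of all genes rose from 0.34 and 0.42 to 3.61 and 3.77 (0.17 and 0.21 with DESeq2 factors, -0.01 and 0.05 with upper-quartile factors) and 12709 genes were higher and 524 lower in H7, 13498 and 312 in UNKC tumours, against 4832 and 3568, and 4752 and 3150, with TMM. Without both muscle-rich libraries (H7 replicate 2 and UNKC replicate 2) 0 members were called in any comparison, as were 0 of all genes by edgeR with 1 residual degree of freedom; at an unadjusted p under 0.05, 6, 8 and 3 members differed, and Egf of H7 minus UNKC was 0.96. Tumours thinned to the depth of normal pancreas left 1 member lower in H7 and 0 lower in UNKC tumours, and Egf then could not be tested. Between the tumours 1 member, Egfr, was higher in H7 with DESeq2 and 1 with only the 4 libraries compared, where 2717 genes were higher and 2692 lower by DESeq2 and 2318 and 2498 in the 4 libraries, against 1164 and 1817. Leaving out 1 library, with the lone library of a group assumed to vary like the others, gave 1 to 2 members lower in H7 and 0 to 2 in UNKC than in normal pancreas, 5 to 7 higher in UNKC, and 0 to 1 higher and 2 to 4 lower in H7 than in UNKC tumours. These omissions moved Areg in H7 between -0.046 (without normal replicate 2) and 9.83 (without normal replicate 1, which leaves a normal library with no Areg read, so that this fitted value is no bound), Erbb3 in UNKC between -1.59 and 0.44 (without normal replicate 2 and 1), and of H7 minus UNKC Tgfa between -1.04 and 0.032 (without H7 replicate 1 and 2) and Egf between -1.71 and 1.04 (without UNKC replicate 1 and 2). With whole exon lengths the share of Hbegf was 43.7% in H7 and 48.4% in UNKC, of Btc in UNKC 18.9%, of Egf in normal pancreas 42.0%, and of Egfr 56.9% in H7 and 42.1% in UNKC (Erbb2 44.0%); by the authors' TPM the share of Egf was 56.4%. With the replicate number as a block 4 members were higher and 2 lower in H7, 7 and 1 in UNKC tumours (Tgfa gained, edgeR adjusted p = 0.0274). Between the tumours 0 were higher and 4 lower in H7 (Erbb3 gained, edgeR adjusted p = 0.0458). Deviations of same-numbered samples correlated at -0.0123 (normal with H7), -0.0232 (normal with UNKC) and 0.526 (H7 with UNKC). Same-numbered tumour libraries thus shared variation, and both replicate 2 tumour libraries were muscle-rich. The labels name no pairs, so the main fit had no block. The causes were not tested. Depth limits Areg, Ereg, Hbegf and Btc in normal pancreas, where they had 0 to 6 reads a library.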
